A study of Mus musculus with 18 samples.

Results

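The genes described here encode the clustered core histones, the proteins H2A, H2B, H3 and H4 around which DNA is wound in the nucleosome. They were chosen by name, as the protein-coding genes whose symbols start with H2ac, H2bc, H3c or H4c, or with H1- for the linker histone. No symbol in either table started with H1-, because both tables list the linker histone genes under H1f names. The rule found 58 members among 22017 genes measured in an in vitro set (16 H2A, 17 H2B, 12 H3 and 13 H4 genes) and 60 among 13195 genes measured in bone marrow (17 H2A, 18 H2B, 12 H3 and 13 H4). The extra pair in bone marrow, H2ac1 and H2bc1, is known from the male germ line. Of the 60, 48 lie on chromosome 13 and 10 on chromosome 3. H2bc27 on chromosome 11 and H4c16 on chromosome 6 lie outside these clusters, although their names place them in the family.

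The study sequenced bulk RNA from the bone marrow of Fabp4 wild-type (WT), heterozygous (HET) and knockout (KO) mice. Fabp4 encodes a fatty acid binding protein. The in vitro set held cells that the labels call sorted from vitro bone marrow, with 3 libraries per genotype. The bone marrow set held sorted bone marrow cells, with 3 WT, 2 HET and 3 KO libraries, since HET library 2 was not used here. The labels give neither the sorted cell population, the culture, the knockout allele, the strain, the sex nor the age, and no treatment that the groups share. The design names 3 mice per genotype without tying each library to a mouse, so the p-values below describe the spread among libraries, which may be technical. Fabp4 was between 0 and 0.330 FPKM in every in vitro library, WT included, and the bone marrow table as used here has no row for it, so it could not check the genotype labels.

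Cells make most core histone protein during S phase, when new DNA must be packaged, and each class is encoded by many nearly identical genes. The mRNAs of these genes are unusual because most have no introns and end in a short stem-loop instead of a poly(A) tail. The stem-loop is bound by the protein SLBP, which is needed to process, translate and degrade the mRNA together with DNA synthesis. In bone marrow, dividing progenitors are the main users of this supply, while some histone genes can also give polyadenylated mRNA that persists in cells that have stopped dividing.

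The sequences below are shown because they carry what the rule did not use, the mRNA end that sets these genes apart and the shared start regions of gene pairs. The stem-loop letters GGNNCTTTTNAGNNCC, read on the transcript strand, were present in GENCODE transcripts of 39 of the 60 members and of 72 of 21901 protein-coding genes (0.329%). A transcript model without a match may end before the stem-loop, so no match says only that the letters are not in the model. The 5 members called in a test in vitro and the abundant H4c9 held it as follows. The stem-loop is in capitals, with 5 bases on each side where the model holds them.

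H2bc8: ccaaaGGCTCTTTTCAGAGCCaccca
H2ac6: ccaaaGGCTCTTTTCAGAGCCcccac
H2bc9: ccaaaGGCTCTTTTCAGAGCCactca
H2bc11: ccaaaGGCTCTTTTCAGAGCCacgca
H4c17: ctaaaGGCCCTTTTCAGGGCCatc
H4c9: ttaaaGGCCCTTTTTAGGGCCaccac

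The 3 H2B genes and the H2A gene H2ac6 held the same 16 letters, and the H4 genes held others. All members together held 6 distinct forms. In H2ac6 the stem-loop lay 2010 bases before the end of the GENCODE transcript and in H2bc9 1214 bases before it. In H4c9 it lay 330 and in H2bc8 155 bases before the end, so these models run on past it. In H2bc11 it lay 23 bases and in H4c17 3 bases from the end. The abundant members H2bc4, which has a spliced GENCODE transcript, and H2bc21 had no match.

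Many H2A and H2B genes lie head to head and share the stretch between them, and 13 divergent pairs of members were found. Of these 12 joined an H2A with an H2B gene, and the other joined H2bc9 with the H3 gene H3c7. The stretches of the pairs that hold H2bc8, H2ac6 and H2bc11 are given on the plus strand of GRCm38.p6, from the RefSeq promoter windows. Capitals mark the octamer ATTTGCAT, the CCAAT box (CCAAT, or ATTGG on the other strand) and the TATA box (TATAAA, or TTTATA on the other strand).

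H2ac8 to H2bc8, chr13:23571221-23571399: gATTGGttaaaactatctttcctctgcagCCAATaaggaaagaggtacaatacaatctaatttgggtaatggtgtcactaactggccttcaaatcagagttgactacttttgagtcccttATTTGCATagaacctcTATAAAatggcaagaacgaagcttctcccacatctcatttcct
H2ac6 to H2bc4, chr13:23683960-23684198: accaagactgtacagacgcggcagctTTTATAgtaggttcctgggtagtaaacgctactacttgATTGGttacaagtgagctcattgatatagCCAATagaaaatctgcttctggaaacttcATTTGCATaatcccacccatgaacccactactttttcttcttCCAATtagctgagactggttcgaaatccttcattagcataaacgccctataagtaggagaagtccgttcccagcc
H2ac11 to H2bc11, chr13:22042950-22043197: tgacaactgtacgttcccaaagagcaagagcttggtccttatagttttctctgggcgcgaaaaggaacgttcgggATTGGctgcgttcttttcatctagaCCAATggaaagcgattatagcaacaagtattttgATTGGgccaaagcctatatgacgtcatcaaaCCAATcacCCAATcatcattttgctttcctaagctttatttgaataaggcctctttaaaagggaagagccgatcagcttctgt

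The octamer is the site of the POU factor that raises H2B transcription in S phase. It was found on either strand in the promoter windows of 6 of 17 H2A and 6 of 16 H2B members, in none of the 10 H3 or 12 H4 members, and in 1.74% of 32851 promoters of the same length. The CCAAT letters were in all 17 H2A, all 16 H2B and all 10 H3 windows but in 3 of 12 H4 windows, against 37.41% of all promoters. TATAAA was in 11 H2A, 8 H2B, 4 H3 and 8 H4 windows, against 13.62%. The stretch beside H2bc8 held an octamer and the one between H2ac6 and H2bc4 held one, while the one between H2ac11 and H2bc11 held none. These matches are letters in a window and not measured binding sites.

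Levels are given as FPKM, the deposited unit scaled for transcript length and depth, which allows genes to be compared per length. In the in vitro set 17516 to 18029 genes were above 0 in 8 libraries and 16779 in WT library 3, and depth estimated from the steps of the low values was about 30700000 to 36900000 fragments. WT library 1 stood apart in several abundant histone genes, where it was low. Over the members summed without H2bc4 and H4c9 it was instead the highest WT library, at 140 FPKM against 130 and 121. H2bc4 was at 37.5 FPKM there against 54.5 and 55.0 in the other WT libraries, the linker histone gene H1f2 at 22.1 against 116 and 110, and the replacement histone gene H3f3b at 372 against 725 and 765. This library was singled out after these values were seen, so calls of these genes without it partly follow from that choice. Counts of calls among the members and among the other lists are given with and without it below. Members share long stretches, since 53 of 60 share at least 1 word of 100 bases with another member and 24 share more than 50% of such words. These shares were taken over whole GENCODE transcripts, which for some members run well past the RefSeq span and so can lower the share. How the authors assigned reads that fit several members is not given in the sources used here, so the split of values between near-identical members is uncertain.

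In vitro the members were expressed at low levels, with a median of 1.17 FPKM over the 58 members' means. Only 5 members reached a mean of 5 FPKM. H2bc4 was the most abundant, and with H4c9 it made up 33.1 to 48.3% of the summed FPKM of all members in a library. All members together made up 0.0299 to 0.0430% of the FPKM in a library.

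The clustered core histone genes were lower in both Fabp4 mutant genotypes than in WT in the in vitro set, in every histone class. Their summed level was 209, 216 and 212 FPKM in the WT libraries (212 ± 3.64, SD, n = 3), 152, 167 and 144 in HET (154 ± 11.7) and 152, 156 and 159 in KO (156 ± 3.995). Every mutant library was below every WT library, and the mean differed from that of WT by -27.5% in HET and -26.6% in KO. These sums are descriptions with no test. The mean of log2(FPKM + 1) was lower than in WT for 54 of 58 members in HET and for 54 of 58 in KO, against 42.7% of all listed genes in each comparison. The 2 comparisons share the WT libraries, so they are not independent.

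H2A sums were 26.5, 23.3 and 18.6 FPKM in WT, 14.1, 14.2 and 14.8 in HET and 14.3, 15.0 and 16.8 in KO, differences of the mean from WT of -37.0% and -32.6%. H2B sums were 92.3, 99.0 and 101 in WT, 58.1, 74.7 and 65.1 in HET and 69.9, 78.3 and 72.3 in KO, differences of the mean from WT of -32.3% and -24.6%. H3 sums were 28.5, 32.7 and 27.0 in WT, 26.3, 24.9 and 16.5 in HET and 21.0, 14.9 and 20.1 in KO, differences of the mean from WT of -23.2% and -36.4%. The H3 sum came close to WT in HET library 1, and after rescaling to TPM the HET and WT sums of H3 overlapped. H4 sums were 61.8, 61.2 and 64.8 in WT, 53.2, 52.8 and 47.1 in HET and 46.2, 48.1 and 50.2 in KO, differences of the mean from WT of -18.5% and -23.0%. Over all alternatives run, including leaving out each library, the differences ranged from -42.3 to -31.5% and -38.3 to -26.7% for H2A in HET and KO, and from -29.7 to -12.9% and -40.3 to -30.0% for H3. For H2B they ranged from -38.5 to -28.3% and -38.3 to -22.8%, and for H4 from -29.5 to -14.1% and -30.4 to -21.5%. In the sums of FPKM no HET or KO library reached the lowest WT library of its class. Without H2bc4 and H4c9, a choice made after seeing the data, the differences were larger, at -38.5% and -38.3% for H2B and -29.5% and -30.4% for H4 in HET and KO.

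**Figure D1:**
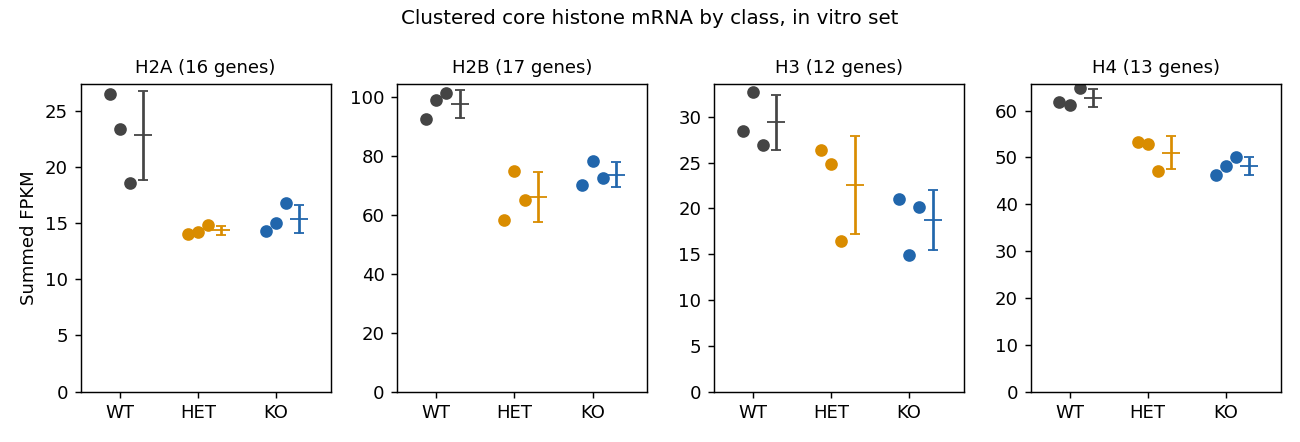
Summed FPKM of the members of each core histone class (vertical axes, FPKM, from 0) in the WT, HET and KO libraries of the in vitro set; points are libraries, bars the mean and SD of 3 libraries. In all 4 classes the HET and KO points lie below the WT points, with H2A going from a mean of 22.8 in WT to 14.4 in HET.

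Gene by gene, few differences passed a test across all genes. Tests used limma on log2(FPKM + 1) for genes with at least 1 FPKM in at least 3 libraries, with Benjamini-Hochberg adjustment over 10877 genes, and a gene is called here when its adjusted p is under 0.05. This filter kept 44 of 58 members, of which 10 would have failed it without the WT libraries and 14 without the HET and KO libraries. In HET against WT, 3 of 44 members were called and all were lower, while 3.68% of all tested genes were called, 0.735% lower and 2.94% higher. In KO against WT, 4 of 44 were called and all were lower, while 2.99% of all tested genes were called, 1.63% lower and 1.36% higher. At an unadjusted p under 0.05, 19 members were lower and none higher in HET (23.4% of all tested genes, 8.94% lower), and 20 were lower and 1 higher in KO (19.4%, 7.48% lower).

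Without any filter, all 3 HET libraries lay below all 3 WT libraries for 19 of 58 members, against 7.54% of all listed genes, and above them for none (11.6%). All 3 KO libraries lay below all WT libraries for 23 of 58 members (6.59% of all genes) and above them for 1 (9.36%). The median difference in log2(FPKM + 1) over the 58 members was -0.30 in HET and -0.35 in KO, against 0.0029 and 0.0027 over all 22017 genes. By class, the medians were -0.26 and -0.36 for H2A, -0.46 and -0.43 for H2B, -0.27 and -0.40 for H3 and -0.28 and -0.27 for H4, in HET and KO.

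**Figure D2:**
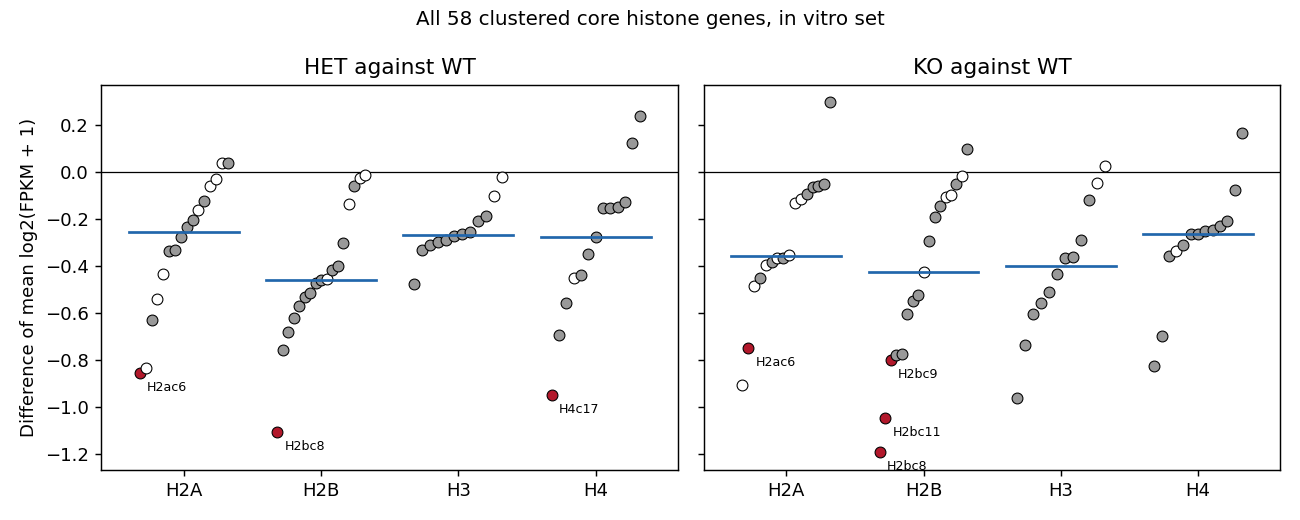
Difference of the mean log2(FPKM + 1) from WT (vertical axes, log2 scale) for each of the 58 members by histone class, in HET (left) and KO (right) of the in vitro set; red points are members with a limma adjusted p under 0.05, grey points tested members without it, white points members under the filter, blue lines class medians. In each panel 54 of 58 points lie below 0.

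Among H2B genes 3 were called. H2bc8, an H2B gene at chr13:23571400-23571863 on the plus strand, was at 8.64, 9.29 and 9.23 FPKM in WT, 3.34, 3.47 and 4.22 in HET and 3.08, 3.69 and 3.42 in KO. Both mutant groups lay below every WT library and overlapped each other. The log2 changes were -1.11 (SE 0.10, adjusted p = 0.000120) in HET and -1.19 (SE 0.10, adjusted p = 0.000164) in KO by limma. The values stand for about 148, 153 and 135 fragments in WT, 54, 55 and 60 in HET and 48, 55 and 54 in KO. H2bc8 shares 44.9% of its words of 100 bases with other members, over a GENCODE model of 618 bases that is longer than its RefSeq span of 464. It was called under every alternative run in both comparisons, with adjusted p up to 0.00196 in HET and 0.00296 in KO. Its head-to-head partner H2ac8, an H2A gene across the 179 bases printed above, was at 2.04, 1.67 and 1.42 in WT, 1.39, 1.52 and 0.993 in HET and 1.01, 1.68 and 2.002 in KO and was not called (adjusted p = 0.391 and 0.794 by limma). The H2ac8 groups overlapped in both comparisons.

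H2bc11, an H2B gene at chr13:22043198-22043658, was at 6.47, 3.48 and 4.54 FPKM in WT, 2.55, 4.50 and 2.55 in HET and 1.94, 1.83 and 1.53 in KO. All KO libraries were under all WT libraries, and HET lay above KO and overlapped WT. It was called lower in KO (-1.05, SE 0.20, adjusted p = 0.01999 by limma) and not in HET (-0.47, adjusted p = 0.182). The difference between KO and HET was not called either (adjusted p = 0.208). Its partner H2ac11, the other gene of the 248-base stretch and 1 of the 2 most abundant H2A members, was at 3.10, 1.79 and 1.88 in WT, 2.37, 2.17 and 2.35 in HET and 2.46, 1.92 and 1.93 in KO. Those groups overlapped, with log2 changes of 0.04 and -0.05 whose signs turned under some alternatives.

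H2bc9, an H2B gene at chr13:23542923-23543444 on the minus strand, was at 4.36, 4.86 and 4.07 FPKM in WT, 3.41, 3.70 and 1.94 in HET and 1.94, 2.09 and 2.31 in KO. Neither mutant group reached WT, and KO was called lower (-0.80, SE 0.16, adjusted p = 0.0228 by limma). HET was not (-0.46, adjusted p = 0.112). H2bc4, the most abundant member in both sets, was at 37.5, 54.5 and 55.0 in WT, 31.3, 41.3 and 35.8 in HET and 39.8, 46.0 and 45.0 in KO. WT library 1 fell within the mutant range, and H2bc4 was not called in HET (-0.42, adjusted p = 0.114) or KO (-0.15, adjusted p = 0.614). Without WT library 1, singled out in part by its low value here, H2bc4 was called in HET (adjusted p = 0.0150 by limma). H2bc21, on chromosome 3 and the next most abundant H2B gene, stayed within the WT range or near it, at 8.53, 7.51 and 7.10 in WT, 5.96, 8.14 and 8.12 in HET and 8.496, 8.56 and 7.89 in KO. It gave the largest rise of its class in KO, a log2 change of 0.10 that was not called (adjusted p = 0.693). Of the 17 H2B members, 17 had a lower mean log2 value in HET and 16 in KO.

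Among H2A genes, H2ac6 was the most abundant in vitro and the one called. H2ac6, at chr13:23683473-23683959 on the minus strand, was at 2.89, 4.57 and 3.39 FPKM in WT, 1.65, 1.38 and 1.54 in HET and 1.71, 1.15 and 2.41 in KO. No mutant library reached the lowest WT library. The log2 changes were -0.86 (SE 0.17, adjusted p = 0.0203) in HET and -0.75 (SE 0.17, adjusted p = 0.0382) in KO by limma. They rest on about 52, 79 and 52 fragments in WT, 28, 23 and 23 in HET and 28, 18 and 40 in KO. H2ac6 shares 7.7% of its words of 100 bases with other members, taken over a GENCODE model of 2482 bases. Its RefSeq span, from which the fragments were estimated, is 487 bases. The share over that span was not computed and may be higher. Its neighbour across the 239-base stretch is H2bc4, described above. H2ac24 was at 1.32, 1.12 and 1.54 in WT, 0.826, 0.776 and 0.938 in HET and 0.923, 1.10 and 0.390 in KO, below every WT library in both mutants but not called (adjusted p = 0.206 and 0.184). H2ac18, on chromosome 3, was the one member for which all KO libraries exceeded all WT libraries. It was at 0.923, 0.912 and 1.08 in WT, 0.734, 0.747 and 0.944 in HET and 1.32, 1.54 and 1.40 in KO, a log2 change of 0.30 in KO that was not called (adjusted p = 0.140). It shares 88.1% of its words of 100 bases with other members, so its level is uncertain. Of the 16 H2A members, 14 had a lower mean log2 value in HET and 15 in KO.

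No H3 gene was called in either comparison. H3c3 and H3c11 were the most abundant. H3c3 was at 6.55, 7.81 and 5.95 FPKM in WT, 5.15, 7.13 and 4.96 in HET and 5.52, 3.83 and 5.88 in KO, with KO below every WT library and HET overlapping (adjusted p = 0.451 and 0.238 by limma). H3c11 was at 2.86, 4.84 and 5.98 in WT, 4.70, 3.69 and 1.96 in HET and 2.16, 1.74 and 1.46 in KO. Its KO change was the largest of the class at -0.96 (SE 0.25, adjusted p = 0.0598). In HET the largest was H3c10, at 2.72, 1.91 and 0.715 in WT and 1.29, 1.14 and 0.401 in HET (-0.48, adjusted p = 0.321), with overlapping groups. H3c13 was at 1.46, 1.68 and 1.39 in WT, 1.09, 0.932 and 1.04 in HET and 1.07, 0.497 and 0.761 in KO, apart from WT in both mutants and just outside the threshold in KO (-0.51, adjusted p = 0.0512). Also just outside it, and named after its value was seen, was the H2B gene H2bc15 (adjusted p = 0.05003), at 2.32, 3.36 and 3.12 in WT and 1.43, 1.63 and 0.861 in KO. H3c6 was at 3.87, 3.65 and 4.28 in WT, 3.37, 3.82 and 2.04 in HET and 3.70, 2.12 and 2.29 in KO, with overlap. The mean of log2(FPKM + 1) was lower for all 12 H3 members in HET and for 11 in KO.

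Among H4 genes, the abundant H4c9 differed little. It was at 31.7, 31.5 and 35.6 FPKM in WT, 29.7, 33.0 and 27.7 in HET and 24.7, 29.5 and 28.4 in KO, with KO below every WT library and log2 changes of -0.13 and -0.25 that were not called (adjusted p = 0.438 and 0.162 by limma). H4c4 was at 5.06, 5.05 and 7.18 in WT, 4.50, 3.71 and 3.65 in HET and 4.08, 4.81 and 3.80 in KO, below WT in every mutant library and not called (adjusted p = 0.0899 and 0.169). H4c3 was also below WT in every mutant library and not called, at 3.11, 3.98 and 5.33 in WT, 2.22, 1.56 and 2.695 in HET and 2.701, 1.33 and 2.51 in KO (adjusted p = 0.0801 and 0.0909). H4c18 was at 4.81, 4.72 and 4.77 in WT, 5.80, 3.89 and 3.21 in HET and 3.01, 1.15 and 2.97 in KO, the largest H4 change in KO at -0.83 (adjusted p = 0.0775). The largest rise of the class in KO was that of H4c1, at 0.894, 1.49 and 0.488 in WT, 0.758, 0.835 and 1.79 in HET and 1.05, 1.71 and 0.775 in KO (0.16, adjusted p = 0.738). In HET it was that of H4c16, at 0.741, 0.706 and 0.650 in WT, 1.505, 0.466 and 1.19 in HET and 0.407, 0 and 1.004 in KO (0.24, adjusted p = 0.576), and neither was called. Of the 13 H4 members, 11 had a lower mean log2 value in HET and 12 in KO.

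H4c17 was the only member called between KO and HET, where 1.99% of all genes were called and 0.598% were called higher. H4c17, at chr13:21811746-21812150, was at 1.74, 0.765 and 1.41 FPKM in WT, 0.142, 0.217 and 0.161 in HET and 1.54, 0.693 and 1.31 in KO. HET stood below all WT and KO libraries, and WT and KO overlapped. It was lower in HET than in WT (-0.95, SE 0.18, adjusted p = 0.0156 by limma) and higher in KO than in HET (0.87, SE 0.18, adjusted p = 0.0276). No HET library reached 1 FPKM, so H4c17 passed the filter through WT and KO libraries alone, the groups where it was high. With only the groups compared in the fit it was not tested in either HET comparison. In KO against WT the change was -0.08 (adjusted p = 0.854). The HET values rest on about 2, 3 and 2 fragments against 26, 11 and 18 in WT and 21, 9 and 18 in KO, and H4c17 shares 88.1% of its words of 100 bases with other members. Between KO and HET 32 of 58 members had a lower mean log2 value in KO (49.2% of all genes) and 26 a higher one, with a median of -0.03. The classes were near even except H3, where 10 of 12 were lower in KO (median -0.14, and -17.1% for the H3 sum), and this difference between classes was not tested. All KO libraries lay below all HET libraries for 2 members (8.41% of all genes) and above them for 3 (7.83%), and 6 members had an unadjusted p under 0.05 (13.2%).

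**Figure D3:**
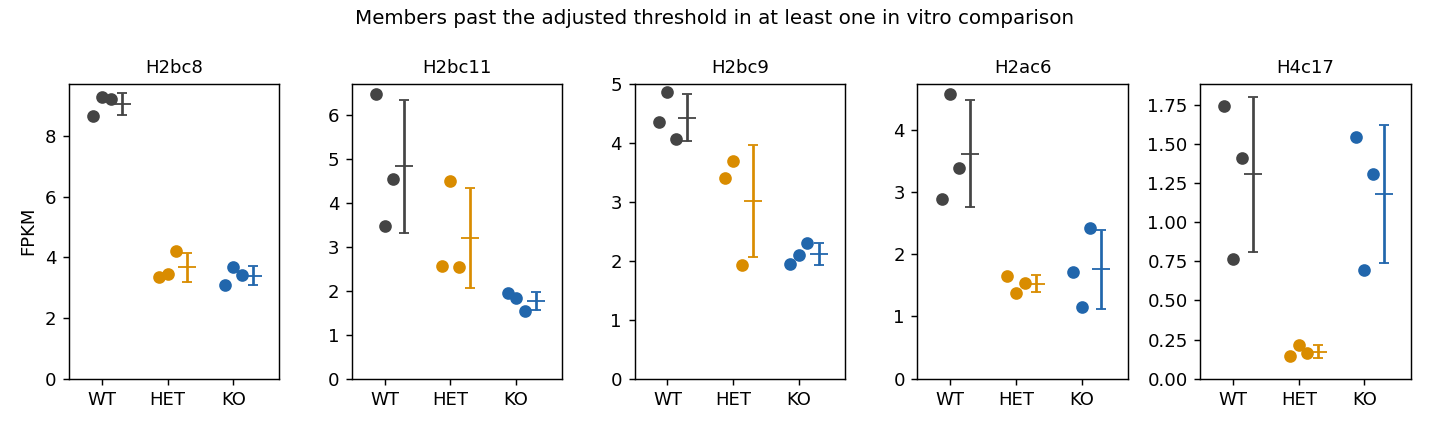
FPKM (vertical axes, from 0, each panel on its own scale) of the 5 members called in at least 1 in vitro comparison, in the WT, HET and KO libraries; points are libraries and bars the mean and SD of 3 libraries. H2bc8 is low in both HET and KO with no overlap with WT, and the HET points of H4c17 lie below its WT and KO points.

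Except for H2bc8, these calls were lost when single libraries were left out. In HET against WT, leaving out HET library 1, 2 or 3 left 1 called member each time, and leaving out WT library 1 gave 5, with H2bc4 and H4c3 added. Calls over all tested genes moved as well, from 400 to 150, 89 and 84 without HET library 1, 2 and 3. They rose to 626 without WT library 1. H2ac6 in HET was not called without any of the 3 HET libraries or WT library 2 (adjusted p up to 0.0887), and H4c17 without any of the 3 HET libraries (up to 0.0706). In KO against WT, 1 member was called without KO library 1 and 2 without KO library 3, while leaving out WT library 1 gave 6, with H2bc15 and H3c11 added. Over all tested genes the KO calls went from 325 to 71, 66 and 386 in these 3 settings. H2bc11 was lost without KO library 1 or 3 (up to 0.0953), H2bc9 without KO library 1 or 3 or WT library 2 (up to 0.0973), and H2ac6 in KO was lost in 11 of 16 alternatives (up to 0.133). The rise of H4c17 from HET to KO was lost without any HET library or KO library 1 or 3 (up to 0.123). Against this, the number of tested members with a lower mean log2 value than WT was 34 to 40 of 39 to 43 in HET and 33 to 40 of 39 to 43 in KO when any 1 library was left out.

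Features that the rule did not use were set beside the direction, as a description of 58 genes that share libraries. A lower mean log2 value in HET and in KO was seen in 37 and 37 of 39 members whose transcript models held the stem-loop (medians -0.29 and -0.36), and in 17 and 17 of 19 members whose models did not (medians -0.33 and -0.29). On chromosome 13 it was 43 and 45 of 46 members (medians -0.32 and -0.37). On chromosome 3 it was 10 and 7 of 10 (medians -0.17 and -0.06), and the difference between chromosomes was not tested. Members that share more than 50% of their words of 100 bases with others had medians of -0.33 and -0.36 (n = 24), and the rest -0.28 and -0.32 (n = 34). This split used whole GENCODE transcripts, so some members with long models may belong in the first group.

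Other genes of histone supply and the cell cycle were counted in the same fits. Replacement histones are made outside S phase from ordinary polyadenylated mRNAs, and 0 of 8 tested were called in HET or KO (H2ax was not among those matched). H3f3b was called lower in both when WT library 1, singled out in part by its low H3f3b value, was left out. Among 20 tested genes for transcription and processing of histone mRNA, Srrt, which encodes the cap-binding partner ARS2, was called higher in HET (29.6, 27.2 and 24.7 FPKM in WT and 39.3, 35.0 and 35.1 in HET, log2 0.41, adjusted p = 0.0353 by limma), and none was called in KO. The Srrt call was lost in 7 of 17 alternatives (adjusted p up to 0.130), including without any 1 of the HET libraries, KO library 3 or WT library 2 or 3, and Srrt was called in KO without KO library 2 (adjusted p = 0.0401). Upf1, a factor of mRNA decay, was called higher in HET as well when WT library 1 was left out. Slbp, which encodes the stem-loop binding protein, was at 47.4, 42.0 and 39.7 in WT, 49.4, 41.2 and 42.6 in HET and 41.3, 44.1 and 42.6 in KO (adjusted p = 0.805 and 0.965). Npat, whose product activates histone genes at S phase entry, was at 4.85, 4.39 and 3.52 in WT, 4.50, 3.90 and 4.75 in HET and 4.25, 3.42 and 4.58 in KO (adjusted p = 0.879 for both).

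Of 21 tested histone chaperones and acetyltransferases, 2 were called lower in HET and 1 in KO. Hat1, which acetylates new H4, was at 75.6, 69.7 and 68.7 FPKM in WT, 57.6, 58.2 and 55.7 in HET and 55.2, 60.5 and 56.5 in KO (log2 -0.31 and -0.31, adjusted p = 0.0300 and 0.0362 by limma). The Hat1 calls were lost in 10 of 17 alternatives in HET (up to 0.127) and 11 of 17 in KO (up to 0.171). Nap1l1, an H2A-H2B chaperone, was at 144, 136 and 142 in WT, 118, 116 and 112 in HET and 118, 130.1 and 121 in KO, and was called lower in HET (log2 -0.29, adjusted p = 0.0385) and not in KO (adjusted p = 0.136). Its HET call was lost in 12 of 17 alternatives (up to 0.150), and the HET calls of Hat1 and Nap1l1 were both lost when any 1 HET library was left out. With WT library 1 left out neither gene was called, and in HET Asf1a was called lower and Cabin1 and Chaf1a higher. Of 28 S phase genes, none was called in HET and 1 was called lower in KO. That gene was Prim1, a primase subunit, at 26.6, 26.0 and 26.9 in WT and 19.0, 22.3 and 20.2 in KO (log2 -0.36, adjusted p = 0.0491). Its call was lost in 11 of 17 alternatives (up to 0.210), including without any 1 of the WT libraries, KO library 1 or 3 or HET library 2 or 3. Without WT library 1, Cdc6, a replication licensing gene, was called higher in HET and no S phase gene was called in KO. Pcna, the replication clamp gene, was not called (log2 -0.15 and -0.14, adjusted p = 0.311 and 0.396), and neither was the proliferation marker Mki67 (log2 0.16 and 0.11, adjusted p = 0.617 and 0.774). None of 20 G2/M genes was called, with or without WT library 1. All 3 KO libraries lay below all WT libraries for 8 of the 28 S phase genes, against 9.09% of tested genes. In HET it was 4, against 11.9%. None lay above WT in either genotype, against 11.6% and 9.36% of all listed genes in HET and KO. Summed S phase genes ran from 1016 to 1089 FPKM in WT, 957 to 1139 in HET and 918 to 970 in KO. No KO sum reached WT. For G2/M genes, 1 lay below WT in each genotype and 1 above in KO, and the sums overlapped. Median changes were -0.06 and -0.14 for S phase genes and -0.06 and 0.07 for G2/M genes in HET and KO, against 0.04 and 0.04 over all tested genes. Without WT library 1 they were 0.0069 and -0.10 for S phase genes and 0.07 and 0.14 for G2/M genes, against 0.06 and 0.06. The HET medians thus turned positive, and list medians without any other library were not computed.

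The linker histone genes H1f1 to H1f5 lie in the same chromosome 13 cluster but are named outside the rule. Their median changes were -0.45 in HET and -0.68 in KO, and H1f3 was called lower in KO, at 6.57, 13 and 8.54 FPKM in WT, 7.07, 7.16 and 6.13 in HET and 5.03, 4.38 and 5.04 in KO (log2 -0.79, adjusted p = 0.0381 by limma). This call was lost in 12 of 17 alternatives (adjusted p up to 0.121), including without any 1 HET or KO library and without WT library 2 or 3. Without WT library 1 the medians were -0.57 and -0.66, and 3 of the 5 genes were called lower in both genotypes. These were H1f2 (log2 -0.84 and -0.63), H1f3 (-0.57 and -0.99) and H1f4 (-0.90 and -1.41), while with that library H1f2 was at -0.08 and 0.13. That library was singled out in part by its low H1f2 value, so the H1f2 calls without it partly follow from that choice. In that setting 626 and 386 of all 10844 tested genes were called in HET and KO. Whether libraries were enriched for polyadenylated RNA is not given in the sources used here. Of 11 RNAs without a poly(A) tail that were looked for, only Vaultrc5, a vault RNA, had a row. It was at 1.57, 2.12 and 1.65 FPKM in WT, 1.08, 1.44 and 0.756 in HET and 0.864, 0.452 and 0.341 in KO, and was called lower in KO (log2 -0.85, adjusted p = 0.0167 by limma). This call was lost without KO library 3, without WT library 2 and with no filter (adjusted p up to 0.0910). The part of RNA selection in the histone differences was not tested.

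Cell type and sex markers also differed between the in vitro groups. In HET, 5 of 7 tested macrophage markers and 4 of 11 neutrophil granule genes were called higher, and in KO 1 of 7 and none of 11. Of 10 tested progenitor markers, 1 was called higher in HET and 2 in KO. Of 6 eosinophil markers, none was called in HET and 1 was called lower in KO. Called lower as well were 1 of 8 erythroid markers in HET and 1 of 5 megakaryocyte markers in KO. None was called in the B cell, T and NK cell, mast cell and basophil or stromal lists. The summed macrophage list ran from 54.0 to 70.1 FPKM in WT, 107 to 119 in HET and 83.8 to 88.5 in KO. The summed granule list ran from 4801 to 6199 in WT, 6231 to 8750 in HET and 4421 to 7950 in KO. The summed progenitor list ran from 486 to 568 in WT, 570 to 666 in HET and 613 to 629 in KO. Summed eosinophil genes ran from 2200 to 2875 in WT, 1429 to 2783 in HET and 1208 to 1647 in KO. Xist was at 44.8, 49.6 and 31.4 FPKM in WT, 12.3, 15.8 and 18.2 in HET and 43.2, 25.2 and 40.0 in KO. The Y gene Ddx3y was at 3.82, 3.35 and 2.39 in WT, 8.91, 9.14 and 11.7 in HET and 7.10, 5.48 and 6.80 in KO. Every in vitro library held both, and the HET libraries had the lowest Xist and the highest Ddx3y. In bulk RNA, fewer cells in S phase and less histone mRNA per cell cannot be told apart, and the part of cell makeup or sex in the histone differences was not tested.

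In the bone marrow set the values of these genes were scattered between libraries of the same genotype. Of 60 members, 16 were above 0 in every library and 44 were listed at 0 in at least 1. In 21 of 60 members, 1 WT library was under 1 FPKM and another over 10 FPKM, which happened for none of 58 in vitro. The same shares over all genes were not counted, so these counts do not set the members apart from other genes. At most 3633 of all 13195 genes can be above 0 in every library, the number above 0 in HET library 1. The HET libraries were the sparsest, with 3633 and 5209 genes above 0 of all kinds against 6560 to 8526 in the others, and with 34 and 21 of 60 members listed at 0. Depth estimates from low values were not settled for this table. Whether an exact 0 here is absence or a failed estimate was not tested.

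H2bc4 was again the most abundant member and was high in every library, at 997, 586 and 660.4 FPKM in WT, 392 and 568 in HET libraries 1 and 3 and 682, 610.2 and 561 in KO. It made up 21.0 to 45.5% of the members' summed FPKM. H2ac24 was at 189, 108 and 256 in WT, 262 and 211 in HET and 112, 199.8 and 248 in KO, with overlapping groups. H2bc21, the third most abundant member in vitro, was at 0 in 7 of 8 bone marrow libraries and at 0.0224 in the other. The tables were tested separately and how they were scaled is not given in the sources used here, so no level is compared across them.

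**Figure D4:**
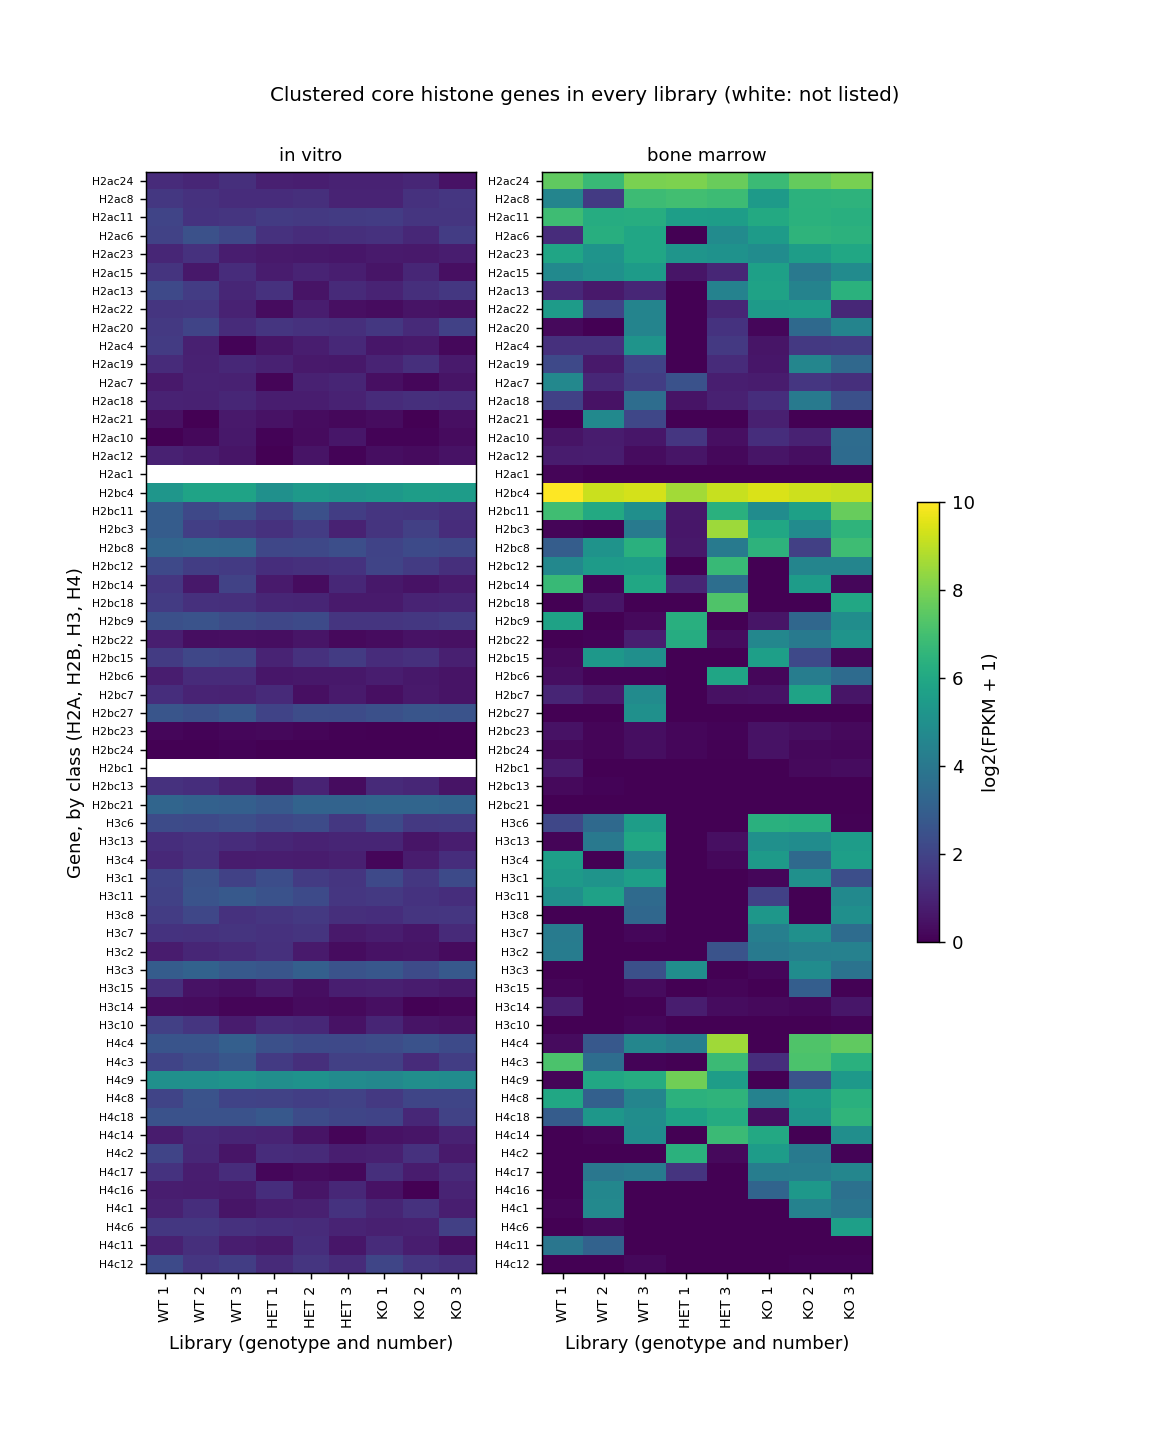
Heat map of log2(FPKM + 1) (colour scale 0 to 10) for all members (rows, grouped by class and ordered by bone marrow mean) in the in vitro (left) and bone marrow (right) libraries (columns); white rows are genes not listed in vitro. In bone marrow H2bc4 is high throughout, and 44 of 60 members are at 0 in at least 1 library, against 5 of 58 in vitro.

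No member was called in bone marrow by limma. In HET against WT it was 0 of 44 tested members, against 0.262% of all 7246 genes, with 3 members at an unadjusted p under 0.05 (12.4% of all genes). In KO against WT it was 0 of 44, against 0% of all genes, again with 3 members at an unadjusted p under 0.05 (5.11%). Here 7 of the 44 would have failed the filter without the WT libraries, and 26 without the HET and KO libraries. Over all 60 members, 39 had a higher mean log2 value in KO than in WT (42.7% of all genes), 6 lay above WT in every KO library (2.65%) and 2 lay below (5.42%), with a median difference in log2(FPKM + 1) of 0.40 against -0.02 over all genes. In HET 42 of 60 had a lower mean log2 value (67.1% of all genes), 9 lay below WT in both libraries (15.1%) and 3 above (3.53%), with a median of -0.37 against -0.38 over all genes.

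In bone marrow the H3 and H4 sums of HET lay on opposite sides of WT. H3 sums were 159.5, 112 and 201 FPKM in WT, 30.8 and 5.72 in HET and 232, 233 and 198 in KO. In both HET libraries 6 of 12 H3 members were at 0, while only 3633 and 5209 of all 13195 genes were above 0 there. The share of all genes at 0 in both was not counted. H3c13, an abundant H3 member there, was at 0.0915, 15.3 and 61.7 in WT, 0 and 0.342 in HET and 31.5, 28.0 and 44.7 in KO. H3c6 was at 3.33, 9.73 and 46.1 in WT, 0 and 0 in HET and 80.5, 76.6 and 0.0307 in KO. H4 sums were 227, 198 and 192 in WT, 471 and 811 in HET and 159, 469 and 611 in KO. H4c4 was at 0.229, 5.68 and 23.4 in WT, 18.2 and 382 in HET and 0, 151 and 188 in KO. H4c3 was at 145, 10.8 and 0.0845 in WT, 0 and 110.4 in HET and 1.47, 143 and 80.5 in KO, and H4c9 at 0.114, 63.5 and 72.7 in WT, 229 and 46.2 in HET and 0, 4.97 and 41.9 in KO. In each of these 3 H4 genes the groups overlapped. H2A sums were 495, 360.0 and 709 in WT, 477 and 462 in HET and 444, 639 and 733 in KO. H2B sums were 1309.6, 769 and 986 in WT, 544 and 1361 in HET and 933, 858 and 1129.5 in KO, and the groups of both classes overlapped.

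**Figure D5:**
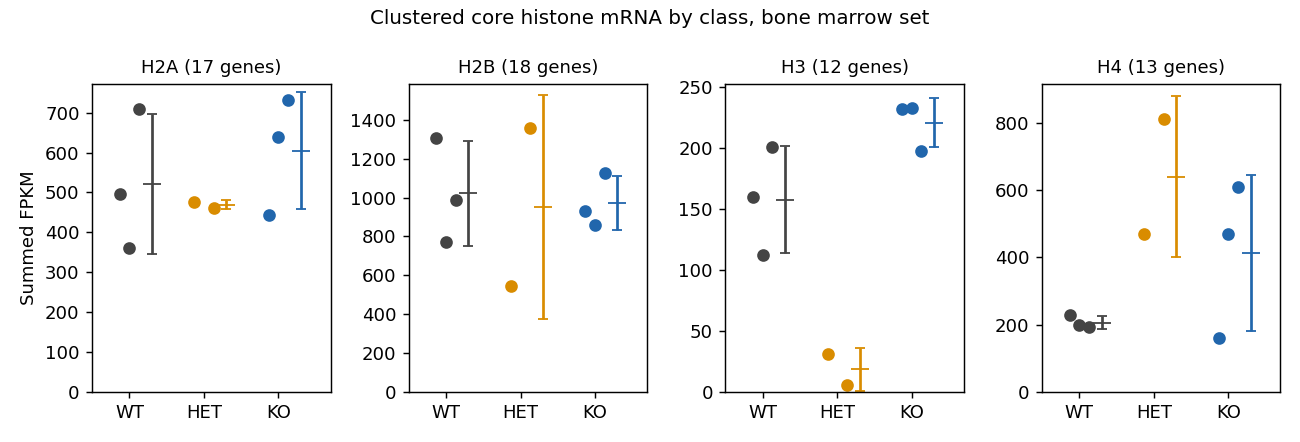
Summed FPKM of the members of each core histone class (vertical axes, FPKM, from 0) in the WT, HET and KO libraries of the bone marrow set; points are libraries, bars the mean and SD (n = 3, 2 and 3). HET is below WT for H3 and above it for H4, and the H2A and H2B groups overlap.

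None of the 5 members called in vitro was called in bone marrow. H2bc8 was at 6.73, 34.0 and 80.5 FPKM in WT, 0.544 and 16.3 in HET and 86.4, 2.73 and 117 in KO. H2ac6 was at 1.41, 75.7 and 60.03 in WT, 0 and 27.5 in HET and 43.3, 88.8 and 84.2 in KO. H2bc11 was at 121, 65.5 and 30.2 in WT, 0.548 and 81.0 in HET and 28.1, 50.1 and 201 in KO. In these 3 genes HET and KO overlapped WT. H2bc9 was at 52.5, 0 and 0.182 in WT, 77.4 and 0 in HET and 0.468, 9.08 and 28.8 in KO, also with overlap. H4c17 was at 0, 14.6 and 16.7 in WT, 1.87 and 0 in HET and 18.1, 18.2 and 23.2 in KO, with all KO libraries above WT. H2ac8 was at 22.5, 2.29 and 116 in WT, 123 and 113 in HET and 42.6, 85.1 and 88.2 in KO, so neither gene of the H2ac8 and H2bc8 pair separated KO from WT. Summed neutrophil granule genes ran from 7179 to 63600 FPKM in WT, 136394 to 141295 in HET and 141350 to 220844 in KO in this set. Xist was at 57.2, 37.6 and 46.0 FPKM in WT, 31.4 and 65.1 in HET and 5.01, 13.8 and 9.81 in KO. Of 4 Y genes, Ddx3y was above 0 in 1 WT library and in KO libraries 2 and 3, and Eif2s3y, Kdm5d and Uty were above 0 only in KO libraries. The part of cell makeup or sex in the bone marrow histone values was not tested.

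Whether KO differed from WT to a different degree in the in vitro and bone marrow sets was tested for the 36 members that passed the filter in both tables. None was called (0 of 36, against 0.738% of 6915 genes) by a joint limma fit, and 5 had an unadjusted p under 0.05 (7.85% of all genes). The smallest p was that of H2ac13, an H2A gene at 3.63, 2.39 and 1.13 FPKM in WT and 0.998, 1.53 and 2.10 in KO in vitro and at 1.23, 0.605 and 1.13 in WT and 53.4, 21.2 and 83.4 in KO in bone marrow. Its change in vitro minus that in bone marrow was -4.93 log2 units (SE 1.22, adjusted p = 0.0960), and it was named after its value was seen. The joint fit used 1 estimate of spread per gene for both sets. In the separate fits the SE of its KO change was 0.29 in vitro and 1.47 in bone marrow, so the joint SE and p may be too small. A missed threshold does not show that the sets act alike.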

How the data were processed

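Bulk RNA was measured in 9 in vitro libraries and 8 bone marrow libraries. Per the labels' protocols, TRIzol was used for extraction and a VAHTS Universal kit for the libraries. The submitters' processing notes name mm10, and for the aligner, the counter and the strand setting the sources used here give nothing. The authors' values are FPKM, per the file headers, with no raw counts, in separate tables for the 2 sets.

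For each table, log2(FPKM + 1) was fitted in R 4.3.3 by limma 3.58.1, with statmod 1.5.0, with trend and robust moderation, a mean per genotype and no block, for genes with at least 1 FPKM in at least 3 libraries. P-values were adjusted over all tested genes at a threshold of 0.05. On this log2 scale of the deposited FPKM, fold changes of low genes are understated. Where HET bone marrow has n = 2, all genotypes share the estimate of spread. Replicate numbers did not pair the libraries. Depth was estimated from low values of genes with a single transcript, of which 76.9 to 85.0% were within 0.1 of a whole fragment. It is approximate and entered no test.

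Members, gene lists and tests were chosen with earlier results of these data known. Named members were those called in any comparison, the 2 with the highest mean per class and table, and the tested members with the largest rise and fall per class in vitro. Others are named where the text says so or as partners of these. Linker histone and sex gene lists were added after the data were seen. Positions are those of RefSeq on GRCm38.p6, matched by gene ID for 60 of 60 members. Transcripts are those of GENCODE M21. The fitting script was tested on simulated data. Alternatives were a pseudocount of 0.1, other filters and scalings, TPM, only the groups compared, a replicate block and leaving out each library.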

Additional observations from a re-analysis of the deposited data

How the results depend on the processing

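In vitro, 3 members were called in HET against WT, 4 in KO against WT and 1 in KO against HET. Counts moved by over 1.5 times to 1, 1 and 0 with a filter at 5 FPKM, which left 7 members to test, to 5 in HET with quantile normalization, and to 1 in KO and 0 in KO against HET with no filter. Over all tested genes the main calls were 400, 325 and 216. They were 282, 290 and 136 with the 5 FPKM filter, 436 in HET with quantile normalization, and 152 and 207 in KO and KO against HET with no filter. With only the groups compared, KO against HET gave 0. The difference between the sets then gave 1 (H2ac13) in place of 0, with 34 of all 6484 genes called. Leaving out each library gave 1 to 5, 1 to 6 and 0 to 2 in vitro, 0 in bone marrow KO and 0 to 2 for the difference between the sets. A count of 2 came without bone marrow KO library 2, where 119 of 6245 genes were called. It also came without bone marrow WT library 1 (65 of 6384). Bone marrow HET against WT gave 0 without any WT or KO library. Leaving out a HET library there left a single one, so no count is given. With the replicate block the counts were 3, 4 and 1 in vitro and 0 in bone marrow, with 3 of the 4 members in KO shared and H3c10 in place of H2ac6. Deviations from the genotype mean were correlated between in vitro libraries of different genotypes. They gave -0.30 to 0.18 for same-numbered libraries and -0.33 to 0.37 for differently numbered ones, so the numbers gave no pairing.

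Signs turned only for changes that were not called. In HET these were H2ac11 (-0.027) and Npat (-0.048) with quantile normalization and H2bc21 (0.0064) with TPM, and in KO Slbp (0.016) with TPM. Leaving out each library gave ranges in HET of -0.061 to 0.22 for H2ac11, -0.13 to 0.070 for H2bc21, -0.091 to 0.31 for H4c1, -0.35 to 0.0006 for H4c18, -0.035 to 0.11 for Slbp, -0.064 to 0.12 for Npat and -0.023 to 0.34 for Mki67. In KO they were -0.15 to 0.12 for H2ac11, -0.22 to 0.071 for H2ac8, -0.017 to 0.35 for H4c1, -0.26 to 0.096 for H4c17, -0.064 to 0.061 for Slbp, -0.15 to 0.051 for Npat and -0.069 to 0.30 for Mki67. In bone marrow, percent changes of class sums spanned -22.0 to 9.80 for H2A in HET, -46.7 to 33.2 for H2B in HET and -15.2 to 10.9 for H2B in KO. Over members above 0 in every library H2A in HET was 5.53% higher, and leaving out the genes H2bc4 and H4c9 put H2B 72.6% and 29.8% higher in HET and KO. In vitro class sums fell in both genotypes under every alternative run. The cause of these moves was not tested. Few fragments stand behind single members (2 or 3 for H4c17 in a HET library), which limits their precision.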
